A study of Mus musculus with 12 samples.

Results

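The 9 genes described here, H2-K1, H2-D1, H2-T23, H2-Q7, B2m, Tap1, Tap2, Tapbp and Nlrc5, build and regulate the MHC class I antigen presentation pathway. They were chosen by symbol from the 50674 genes of the deposited table, each symbol gave 1 row, and all 9 were among the 17457 genes with enough counts to be tested. The measurements are RNA-seq counts from mouse natural killer (NK) cells, cytotoxic lymphocytes that were grown from spleen with the cytokine IL-2. The wild-type and Mirc11-/- cells both carried the strain label C57BL/6. Mirc11 is a cluster of microRNA genes on chromosome 8 (Mir23a, Mir27a and Mir24-2), and Mirc11-/- cells lack it. Cells of each genotype were either untreated or stimulated for 6 h through NKG2D, an activating receptor of NK cells, which gave 4 groups of 3 libraries. The labels used here give no age or sex of the mice and do not say whether the deletion was restricted to a cell type. The design text calls the libraries biological replicates without saying whether each came from its own mouse or culture, so p-values measure the spread between these libraries.

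A class I molecule is a heavy chain (H2-K1, H2-D1 and the less polymorphic H2-T23 and H2-Q7) held with the small subunit beta-2-microglobulin, which B2m encodes. Peptides made by the proteasome are carried into the endoplasmic reticulum by the transporter Tap1-Tap2, which Tapbp (tapasin) bridges to the empty class I molecule. Nlrc5 is a transactivator that acts on class I promoters at a conserved set of sequence boxes. NK cells both carry class I molecules and read them on other cells, because loss of class I from a target cell releases NK killing.

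After NKG2D stimulation of wild-type cells, 5 of the 9 genes were higher (H2-K1, H2-D1, H2-Q7, B2m and Tap1), by 1.31-fold to 1.49-fold, while 16.1% of all genes tested were called higher. Leaving out untreated replicate 3 or stimulated replicate 1 took that number to 0, with 2049 of 18308 and 2010 of 18253 genes then called higher. Nlrc5 fell 2.96-fold in the same libraries. In Mirc11-/- cells Nlrc5 fell by a like factor, 2.72-fold, and H2-Q7 was the 1 gene of the 9 called higher. The direct tests of a difference between the genotypes' responses did not pass the threshold for any of the 9.

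Because several of these genes moved together in wild-type cells, the sequences upstream of 4 of the 5 genes that rose are shown, from RefSeq (GRCm38.p6), 5′ to 3′ on the gene's own strand and ending at most 3 bases before the RefSeq transcription start. Capitals mark matches to GGGATTCCC (a kB site, the target of NF-kB), TGACG (the core of the X2 box), ATTGG or its complement CCAAT (the core of the Y box), and the interferon response core, which is GAAA, any 2 bases, GAAA.
H2-K1, chr17:34000348-34000517, minus strand: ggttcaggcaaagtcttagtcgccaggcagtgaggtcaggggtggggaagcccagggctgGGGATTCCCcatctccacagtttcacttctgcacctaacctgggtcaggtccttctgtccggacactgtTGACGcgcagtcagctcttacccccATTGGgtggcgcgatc
H2-Q7, chr17:35438985-35439154, plus strand: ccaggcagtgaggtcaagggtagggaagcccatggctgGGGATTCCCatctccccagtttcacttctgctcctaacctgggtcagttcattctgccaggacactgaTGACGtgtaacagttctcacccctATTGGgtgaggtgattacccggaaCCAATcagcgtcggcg
B2m, chr2:122147517-122147685, plus strand: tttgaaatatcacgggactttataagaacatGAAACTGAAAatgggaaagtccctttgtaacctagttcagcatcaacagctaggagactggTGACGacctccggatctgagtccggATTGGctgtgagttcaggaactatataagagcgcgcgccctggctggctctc
Tap1, chr17:34187386-34187552, plus strand: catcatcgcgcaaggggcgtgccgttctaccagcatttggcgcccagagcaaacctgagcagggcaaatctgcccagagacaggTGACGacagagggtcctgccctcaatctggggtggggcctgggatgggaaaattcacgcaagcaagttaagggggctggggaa

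Of the 9 genes, 7 had a promoter entry, and Tap2 and Nlrc5 were without one. Matches were counted on both strands in the 250 bases before each start. The kB site GGGATTCCC was found in H2-K1, H2-D1 and H2-Q7, while 0.301% of all 32851 promoter entries held it. TGACG was found in H2-K1, H2-D1, H2-Q7, B2m and Tap1, against 17.8% of all entries, and ATTGG in all 7, against 33.8%. In H2-K1, H2-D1, H2-Q7 and B2m, TGACG and ATTGG lay on 1 strand with their first bases 24 to 25 bases apart, an arrangement held by 0.128% of all entries. That spacing was picked after the sequences had been read. The sequences shown for H2-K1 and H2-Q7 share long runs of letters, so their matches are not independent of each other. How alike the other promoters are was not measured. The interferon response core was found in H2-T23 and B2m, against 2.98% of all entries. The gamma-activated site TTCNNNGAA (7.02% of all entries), the kB variant GGGAATTCC (0.21%) and the wider GGGANTTCC, which includes that variant (1.43%), were found in none of the 7. A match describes the letters only, and binding was not measured.

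The heavy chains H2-K1 and H2-D1, the classical class I molecules, were abundant in every library. Levels are given as CPM, a library's counts scaled to a common total with edgeR's composition (TMM) factors. H2-K1 (ENSMUSG00000061232, chromosome 17, 33996017 to 34000347, GRCm38) was at 659.5, 773 and 561 CPM in untreated wild-type replicates 1, 2 and 3 and at 845, 973 and 791 CPM in the stimulated ones. All 3 stimulated libraries lay above all 3 untreated ones. The log2 difference was 0.39 ± 0.135 (SE, edgeR adjusted p = 0.0402), a 1.31-fold rise. Among Mirc11-/- libraries H2-K1 was at 658, 551 and 649 CPM untreated and at 564, 670.5 and 692 CPM stimulated. These sets overlapped, and the difference was 0.05 ± 0.135 (edgeR adjusted p = 0.777).

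H2-D1 (ENSMUSG00000073411, chromosome 17, 35262730 to 35267499) followed the same order. It was at 626, 769 and 520.0 CPM in untreated wild-type libraries and at 835, 973 and 795 CPM after stimulation, again without overlap. The difference was 0.44 ± 0.150 (edgeR adjusted p = 0.0363), a rise of 1.36-fold. In Mirc11-/- libraries it was at 659, 565 and 659.9 CPM untreated and at 551, 704 and 725 CPM stimulated, with a difference of 0.07 ± 0.150 (edgeR adjusted p = 0.720). The Mirc11-/- stimulated libraries held both the lowest and the highest value of the 6, so stimulation did not separate them.

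H2-Q7 (ENSMUSG00000060550, chromosome 17, 35439155 to 35443773), a Qa-2 antigen gene, rose in both genotypes. In wild-type cells it was at 80.9, 82.2 and 60.5 CPM untreated and at 125, 116 and 91.0 CPM stimulated, 0.57 ± 0.168 higher on the log2 scale (edgeR adjusted p = 0.0207). The Mirc11-/- libraries were at 88.4, 62.7 and 69.2 CPM untreated and at 124.7, 94.9 and 94.6 CPM stimulated, 0.51 ± 0.169 higher (edgeR adjusted p = 0.0255). In neither genotype did the sets overlap, and the difference between the 2 responses was -0.06 (edgeR adjusted p = 0.927).

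H2-T23 (ENSMUSG00000067212, chromosome 17, 36029773 to 36032855) encodes Qa-1, the ligand of the NK receptor that Klrd1 forms part of. It was at 171, 203 and 148 CPM in untreated wild-type libraries and at 209, 228 and 223 CPM in stimulated ones. The stimulated libraries all lay higher, but the difference of 0.34 ± 0.125 missed the threshold (edgeR adjusted p = 0.0535). Mirc11-/- values were 163, 144 and 173 CPM untreated and 143, 184 and 181 CPM stimulated, and they overlapped.

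Class I heavy chains share stretches of sequence, which makes the split of reads between them uncertain. Of the 31-base stretches of its transcripts, H2-K1 shared 22.8% with other genes, H2-D1 26.7%, H2-T23 24.4% and H2-Q7 39.1%, whereas B2m and Nlrc5 shared 0. The counts of 31 rows with class I heavy chain symbols (H2-K, D, L, Q, T and M series) were therefore summed and fitted as 1 gene among all others. They were taken by symbol without regard to gene type, so pseudogenes may be among them. The sum rose 1.35-fold in wild-type cells, by 0.43 ± 0.138 (edgeR adjusted p = 0.0294). Its difference in Mirc11-/- cells was 0.13 ± 0.138 (edgeR adjusted p = 0.453), and the responses differed by -0.30 ± 0.195 (edgeR adjusted p = 0.543). H2-K1 and H2-D1 made up 64.3% to 73.0% of the summed counts.

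B2m (ENSMUSG00000060802, chromosome 2, 122147686 to 122153083), the subunit common to all these heavy chains, had 848, 886 and 583 CPM in untreated wild-type libraries. After stimulation it had 1191, 1164 and 924 CPM, all higher than any untreated library. The rise was 0.50 ± 0.164 on the log2 scale, or 1.42-fold (edgeR adjusted p = 0.0311). Without the cluster B2m was at 867, 680.3 and 835 CPM untreated and at 800.1, 910.4 and 999.7 CPM stimulated. There replicate 1 of the stimulated group fell among the untreated libraries, and the difference was 0.19 ± 0.163 (edgeR adjusted p = 0.372).

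Of the peptide transport genes, Tap1 moved and its partner Tap2 did not pass the test. Tap1 (ENSMUSG00000037321, chromosome 17, 34187553 to 34197225) was at 109.5, 128 and 91.6 CPM in untreated wild-type libraries and at 152, 153 and 138 CPM in stimulated ones. The groups did not overlap, with a difference of 0.43 ± 0.119 (edgeR adjusted p = 0.0135). Mirc11-/- libraries had Tap1 at 114, 93.8 and 113 CPM untreated and at 120.4, 125 and 139.9 CPM stimulated. The 3 stimulated libraries were again all higher, but 0.26 ± 0.119 did not pass (edgeR adjusted p = 0.0852).

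Tap2 (ENSMUSG00000024339, chromosome 17, 34203527 to 34216321) was at 99.1, 112 and 97.5 CPM in untreated and 111, 123 and 112 CPM in stimulated wild-type libraries, a difference of 0.16 ± 0.0922 (edgeR adjusted p = 0.204). The Mirc11-/- values were 109, 95.4 and 104 CPM untreated and 85.0, 102 and 97.8 CPM stimulated, a difference of -0.11 ± 0.0926 (edgeR adjusted p = 0.346). Tapbp (ENSMUSG00000024308, chromosome 17, 33915899 to 33929292) ranged from 160.3 to 175 CPM in untreated and from 174 to 194 CPM in stimulated wild-type libraries (0.16 ± 0.0873, edgeR adjusted p = 0.192). Its Mirc11-/- libraries ranged from 168 to 189 CPM untreated and from 159.8 to 185 CPM stimulated (-0.03 ± 0.0874, edgeR adjusted p = 0.812). For both genes the treated and untreated libraries overlapped in each genotype.

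Nlrc5 (ENSMUSG00000074151, chromosome 8, 94434356 to 94527272), the class I transactivator, changed most of the 9 and in the opposite direction. It had 2385, 1902 and 2057 counts in untreated wild-type libraries and 716, 706 and 501 counts in stimulated ones. Scaled, this was 93.6, 104 and 82.5 CPM against 33.3, 36.0 and 25.5 CPM, so every stimulated library lay far under every untreated one. The log2 difference was -1.56 ± 0.168 (edgeR adjusted p = 2.3e-05). Mirc11-/- cells went from 92.9, 68.1 and 73.9 CPM to 35.6, 25.1 and 25.8 CPM, a log2 difference of -1.44 ± 0.169 (edgeR adjusted p = 2.85e-05). The responses differed by 0.12 ± 0.234 (edgeR adjusted p = 0.836). Of the 2745 genes called lower in wild-type cells, 173 (6.30%) fell further than Nlrc5, and of the 3852 called lower in Mirc11-/- cells, 303 (7.87%) did. Nlrc5 is on the chromosome of the deleted cluster and starts 10.2 Mb from it.

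**Figure D1:**
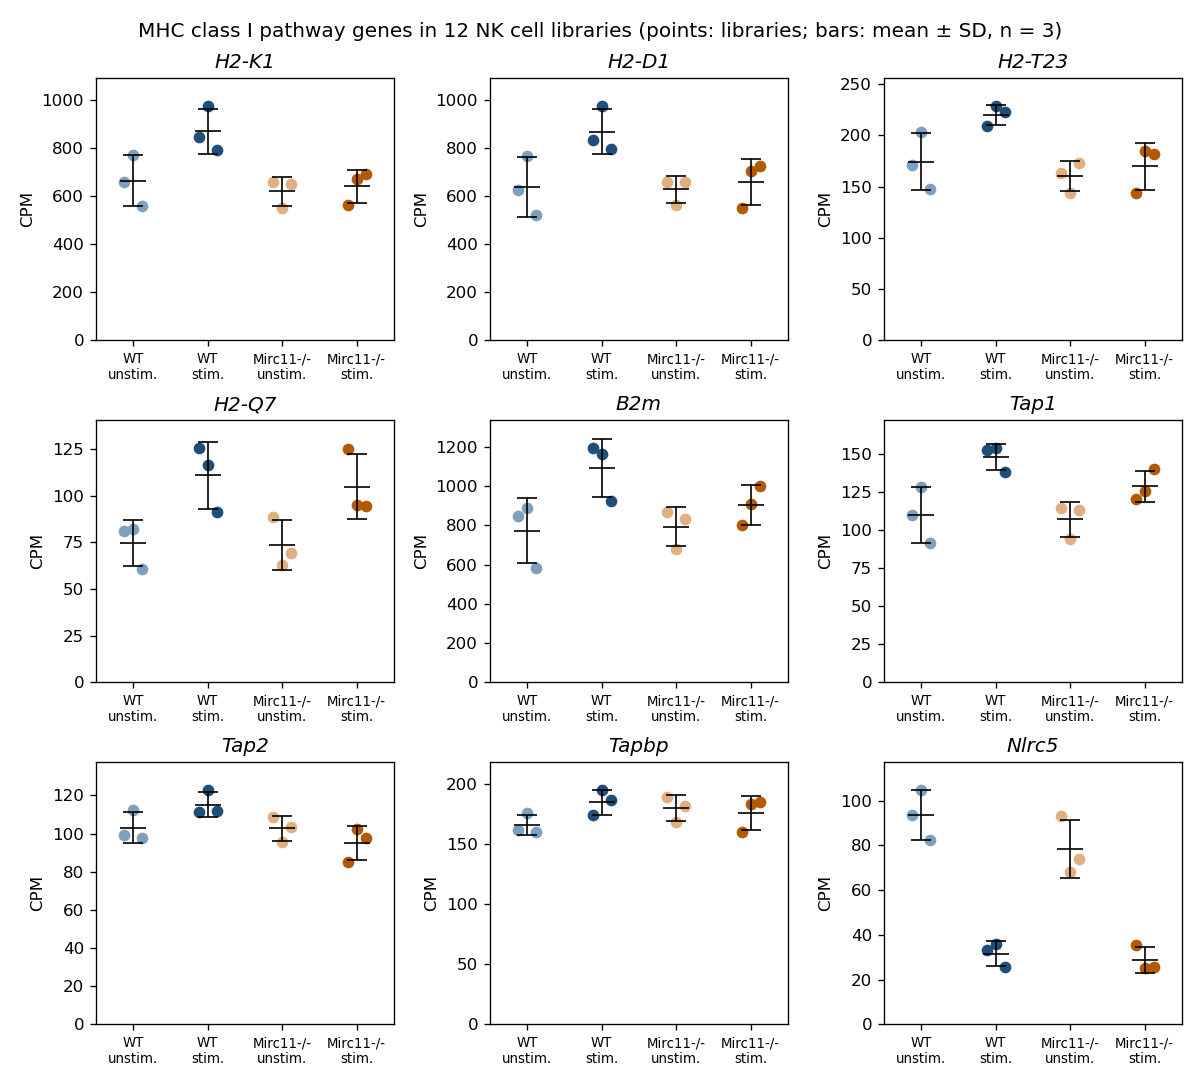
CPM (linear axis from 0) of each of the 9 genes in each of the 12 libraries, with 1 panel per gene, 1 point per library and bars for the mean ± SD of each group of 3. Nlrc5 drops on stimulation in both genotypes (means of 93.5 to 31.6 CPM in wild-type and 78.3 to 28.8 CPM in Mirc11-/- cells), while B2m goes from a mean of 772 to 1093 CPM in wild-type cells.

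Set against all genes, the 5 of 9 called higher in wild-type cells compare with 16.1% of all tested genes, and the 1 called lower with 15.7% (31.8% in either direction). All 3 stimulated libraries lay above all 3 untreated ones for 6 of the 9 (24.9% of all genes) and under them for Nlrc5 alone (24.1% of all genes). The median log2 difference of the 9 was 0.39, beside 0.02 over all genes. In Mirc11-/- cells 1 of the 9 was called higher (23.5% of all genes) and 1 lower (22.1%), with 45.6% in either direction. There 2 lay above without overlap (27.9% of all genes) and 1 under (26.2%), and the median was 0.07 beside 0.03 over all genes.

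The calls in wild-type cells rest on few libraries. In untreated wild-type cells replicate 3 gave the lowest and replicate 2 the highest CPM for 9 of the 9 genes, and replicate 3 also had the largest composition factor of that group (1.06). With no composition factor, 6 of the 9 were called higher in wild-type cells, beside 2345 of 17457 genes. Without untreated replicate 3 (2049 of 18308 genes higher), or without stimulated replicate 1 (2010 of 18253), 0 of the 9 were called higher. The number was 1 without stimulated replicate 2 (2492 of 18346). It was 3 without untreated replicate 1 (2088 of 18332) or stimulated replicate 3 (2403 of 18315), and 6 without untreated replicate 2 (2494 of 18348). Nlrc5 was called lower in each of these fits. In untreated Mirc11-/- cells replicate 2 was the lowest for 9 of the 9, and in stimulated Mirc11-/- cells replicate 1 for 7 of the 9. Leaving out untreated Mirc11-/- replicate 2 or 3, or stimulated replicate 1, ended the H2-Q7 call in that genotype, with an edgeR adjusted p of up to 0.136.

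**Figure D2:**
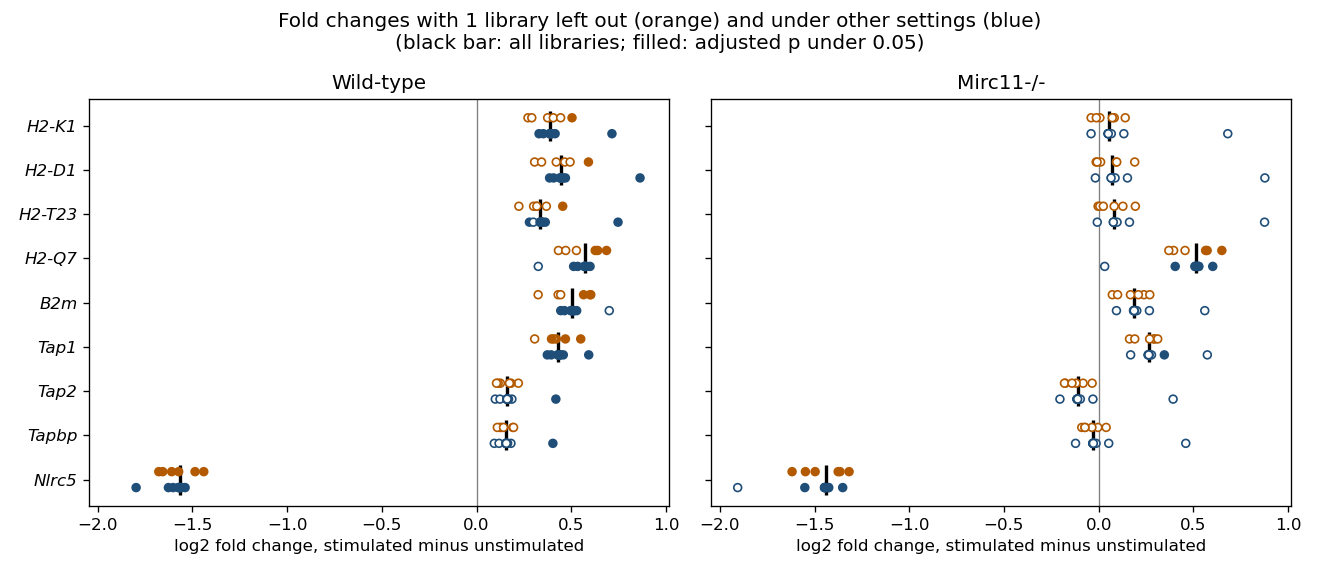
Log2 difference on stimulation of each of the 9 genes in each genotype, with all 12 libraries (black bar), with 1 library of the comparison left out (orange) and under the other settings (blue), filled where the adjusted p was under 0.05. The values of Nlrc5 stay under 0, those of the other genes in wild-type cells stay above 0, and those of H2-K1, H2-D1, H2-T23, Tap2 and Tapbp in Mirc11-/- cells lie on both sides of 0.

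The direct comparison of the responses, Mirc11-/- minus wild-type, called 0 of the 9 with edgeR at an adjusted p of 0.05, beside 0.0115% of all genes (2 genes). At an unadjusted p of 0.05 the number was also 0, beside 1858 of 17457 genes. DESeq2 called 0 of the 9, beside 15 genes higher and 48 lower. With limma voom it was 0 of the 9, beside 0 genes higher and 2 lower. The estimate was negative for 8 of the 9, with Nlrc5 the exception, and its median was -0.25, beside -0.02 over all genes. The estimates were -0.34 ± 0.190 for H2-K1 (edgeR adjusted p = 0.494), -0.37 ± 0.212 for H2-D1 (0.497) and -0.31 ± 0.231 for B2m (0.576). A rise in one genotype and no call in the other is therefore not shown to be a difference between them.

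In untreated cells the libraries of the genotypes overlapped for all 9 genes, while 8.87% of all genes lay wholly above and 8.91% wholly under. Of the 9, 0 were called, beside 1.11% of all genes (0.309% higher and 0.796% lower). At an unadjusted p of 0.05 the number was 0, beside 1607 of 17457 genes. DESeq2 called 0, beside 105 genes higher and 277 lower. The median of the 9 was -0.02, beside 0.01 over all genes. The smallest adjusted p was that of Nlrc5 (-0.26 ± 0.163, edgeR adjusted p = 0.751). After stimulation edgeR again called 0 of the 9, beside 9.02% of all genes (3.89% higher and 5.13% lower). Under an unadjusted p of 0.05 were 4 of the 9, beside 5257 of 17457 genes. DESeq2 called 3 lower, beside 1380 of all genes. All 9 estimates were negative, with a median of -0.28 beside 0.02 over all genes. This comparison and the difference of the responses share the stimulated libraries.

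The 4 genes whose stimulated Mirc11-/- libraries all lay under the stimulated wild-type ones were H2-K1, H2-D1, H2-T23 and Tap2 (16.8% of all genes did so, and 15.8% lay wholly above). H2-K1 had 564 to 692 CPM against 791 to 973 CPM, a difference of -0.44 ± 0.135 (edgeR adjusted p = 0.0560). H2-D1 differed by -0.39 ± 0.150 (edgeR adjusted p = 0.102), H2-T23 by -0.37 ± 0.125 (0.0710) and Tap2 by -0.28 ± 0.0925 (0.0705). None of these passed, so the lower levels in stimulated Mirc11-/- cells stand as values and not as calls.

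**Figure D3:**
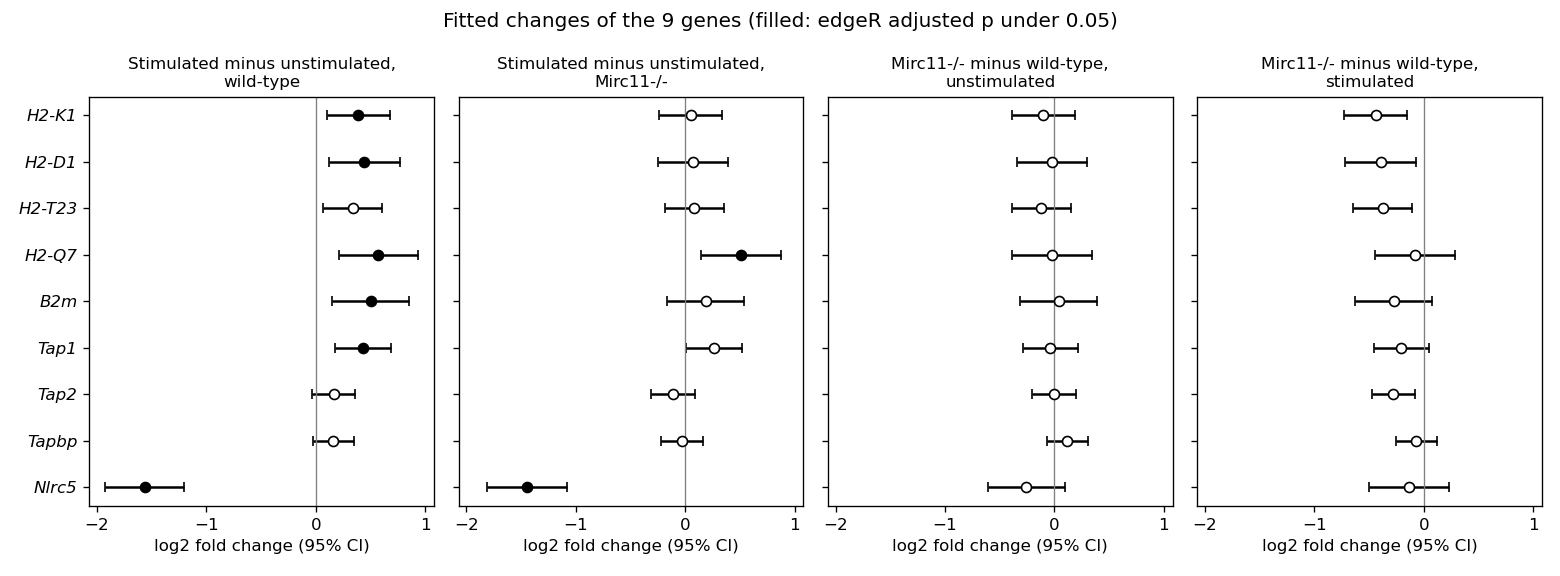
Log2 differences of the 9 genes with 95% confidence intervals for stimulation in each genotype and for Mirc11-/- minus wild-type in untreated and in stimulated cells, filled where the adjusted p was under 0.05. Nlrc5 sits at -1.56 and -1.44 for stimulation in the respective genotypes, and in stimulated cells the points of all 9 genes for Mirc11-/- minus wild-type lie under 0.

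Per length of transcript, the order of the genes was nearly the same in the 4 groups. In untreated wild-type cells B2m stood at 898 ± 192 CPM per kb of transcript (SD, n = 3), H2-K1 at 424 ± 67.7, H2-D1 at 304 ± 59.4 and H2-T23 at 118 ± 18.9. Then came Tapbp at 60.4 ± 3.09, H2-Q7 at 51.1 ± 8.35, Tap1 at 39.5 ± 6.62, Tap2 at 29.9 ± 2.39 and Nlrc5 at 16.3 ± 1.92 CPM per kb. The neighbours H2-K1 and H2-D1, and H2-Q7 and Tap1, overlapped in their library values there. After stimulation H2-Q7 stood at 76.0 ± 12.2 and Tapbp at 67.3 ± 3.82 CPM per kb in wild-type cells, so they changed places, but their libraries overlapped. Nlrc5 was the least abundant per length in every group, at 5.50 ± 0.954 CPM per kb in stimulated wild-type cells.

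Across the 12 libraries, which share the 4 groups and their depth, H2-K1 and H2-D1 varied together (Pearson r = 0.981), as did B2m and Tap1 (r = 0.951). Nlrc5 ran against the others, with r between -0.64 and -0.02. The genes most like the mean standardised profile of the 9, among 9686 candidates, were Shisa5 (r = 0.957), Pfdn5 (r = 0.951), Dcxr (r = 0.945), Cox7a2l (r = 0.942) and Fam46a (r = 0.941). These are descriptions over 12 libraries.

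The other genes of the pathway were taken from lists by role. Of 10 other class I heavy chain genes tested, 6 were called higher and 0 lower in wild-type cells (median 0.54), where 16.1% and 15.7% of all genes were. The Mirc11-/- cells gave 5 higher and 1 lower (median 0.44), beside 23.5% and 22.1% of all genes. H2-K2 rose the furthest of these, with 1.20 ± 0.331 CPM untreated and 4.81 ± 0.351 CPM stimulated in wild-type cells (SD, n = 3). Its Mirc11-/- levels were 1.23 ± 0.245 and 4.45 ± 0.765 CPM. The log2 differences were 1.98 ± 0.234 (edgeR adjusted p = 3.57e-05) and 1.85 ± 0.244. H2-Q4, H2-Q5, H2-Q6 and H2-T10 rose in both genotypes, by 0.43 to 0.68 in wild-type and by 0.40 to 0.64 in Mirc11-/- cells. Leaving out 1 library at a time kept H2-K2, H2-Q4 and H2-Q5 called in 6 of 6 fits in each genotype, but H2-T10 in 2 of 6 in wild-type and H2-Q6 in 2 of 6 in Mirc11-/- cells. With the sum of vomeronasal receptor transcripts, described at the end, as a covariate, 2 of the 10 were called higher in wild-type (H2-K2 and H2-T22) and 0 in Mirc11-/- cells. Over all 17457 genes that covariate gave 2001 higher in wild-type (2814 without it) and 297 in Mirc11-/- cells (4106 without it). The covariate did not overlap between untreated and stimulated libraries of a genotype, so such a fit cannot fully separate it from stimulation. The other heavy chain genes share sequence with the classical ones, so the limit on the split of reads applies to them too.

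H2-T22, whose product is a ligand of gamma-delta T cells, had 74.3 ± 14.8 CPM in untreated and 108 ± 11.2 CPM in stimulated wild-type cells, a rise (0.54 ± 0.133, edgeR adjusted p = 0.00691). Its Mirc11-/- levels were 65.8 ± 4.93 and 79.0 ± 8.48 CPM without a call. After stimulation it was lower in Mirc11-/- than in wild-type cells, by 0.45 on the log2 scale (SE 0.133, edgeR adjusted p = 0.0488). That call held in 1 of 6 fits with a library left out, the one without wild-type replicate 1, and the adjusted p reached 0.188 in the others. H2-M3, which presents formylated peptides, was the 1 heavy chain called lower in Mirc11-/- cells (-0.40, edgeR adjusted p = 0.0371), and was not called without untreated replicate 1 or 2 or stimulated replicate 1. Whether H2-T22 or H2-M3 responded differently in the genotypes did not pass the test of the difference.

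Of 10 genes that make and load the peptides, 1 was called higher and 2 lower in wild-type cells (median -0.17), beside 16.1% and 15.7% of all genes. In Mirc11-/- cells 0 were called higher and 8 lower (median -0.49), beside 23.5% and 22.1% of all genes and a median of 0.03 over all genes. Tapbpl, a peptide editor related to tapasin, was higher in stimulated wild-type cells, at 43.5 ± 0.866 CPM against 33.5 ± 2.07 CPM (0.37 ± 0.0743, edgeR adjusted p = 0.00183). Erap1, the aminopeptidase that trims peptides in the endoplasmic reticulum, fell on wild-type stimulation, 136 ± 6.87 CPM becoming 103 ± 5.94 CPM (-0.40 ± 0.0949, edgeR adjusted p = 0.00548), with a log2 difference of -0.61 in Mirc11-/- cells. Pdia3, a disulfide isomerase of the loading complex, fell as well, 407 ± 41.8 CPM becoming 273 ± 17.3 CPM (-0.58 ± 0.107, edgeR adjusted p = 0.00109), with -0.76 in Mirc11-/- cells.

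The 8 that fell in Mirc11-/- cells also held the chaperones Calr (-0.67, edgeR adjusted p = 0.00136) and Canx (-0.37), the immunoproteasome subunits Psmb8 (-0.48) and Psmb10 (-0.50), and the proteasome activator subunits Psme1 (-0.30) and Psme2 (-0.57). Calr went from 634 ± 39.0 to 398 ± 74.9 CPM there, and in stimulated cells it was lower in Mirc11-/- than in wild-type cells (-0.58 ± 0.136, edgeR adjusted p = 0.0224). Without wild-type replicate 2 or 3 that difference was not called, with an adjusted p of up to 0.111. The test of the difference between responses called 0 of the 10, but also only 2 of all 17457 genes.

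Stimulated Mirc11-/- replicate 1 was the lowest of its group for each of these 6 chaperone and proteasome genes. Calr, for example, was at 312 CPM there against 433 and 449.9 CPM, and Psmb8 at 89.9 CPM against 129 and 125 CPM. The same library had the highest sum of vomeronasal receptor transcripts, 85.4 CPM. Without it 7 of the 10 were still called lower, with Calr at -0.52 and Psmb8 at -0.33, while Psme1 at -0.16 was not (edgeR adjusted p = 0.102). Leaving out any 1 library of the comparison gave 7 or 8 called lower, beside 3272 to 3857 of all genes. With the vomeronasal sum as a covariate 0 of the 10 were called lower, beside 263 of all 17457 genes (3852 without the covariate). That sum did not overlap between untreated and stimulated libraries of a genotype, so this fit cannot fully separate it from stimulation. Of the 8, 6 took the opposite sign, among them Calr at 0.24 (edgeR adjusted p = 0.673) and Psme2 at 0.60 (edgeR adjusted p = 0.154). Erap1 and Pdia3 stayed negative, at -0.22 and -0.45, and neither was called in wild-type cells with the covariate.

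**Figure D4:**
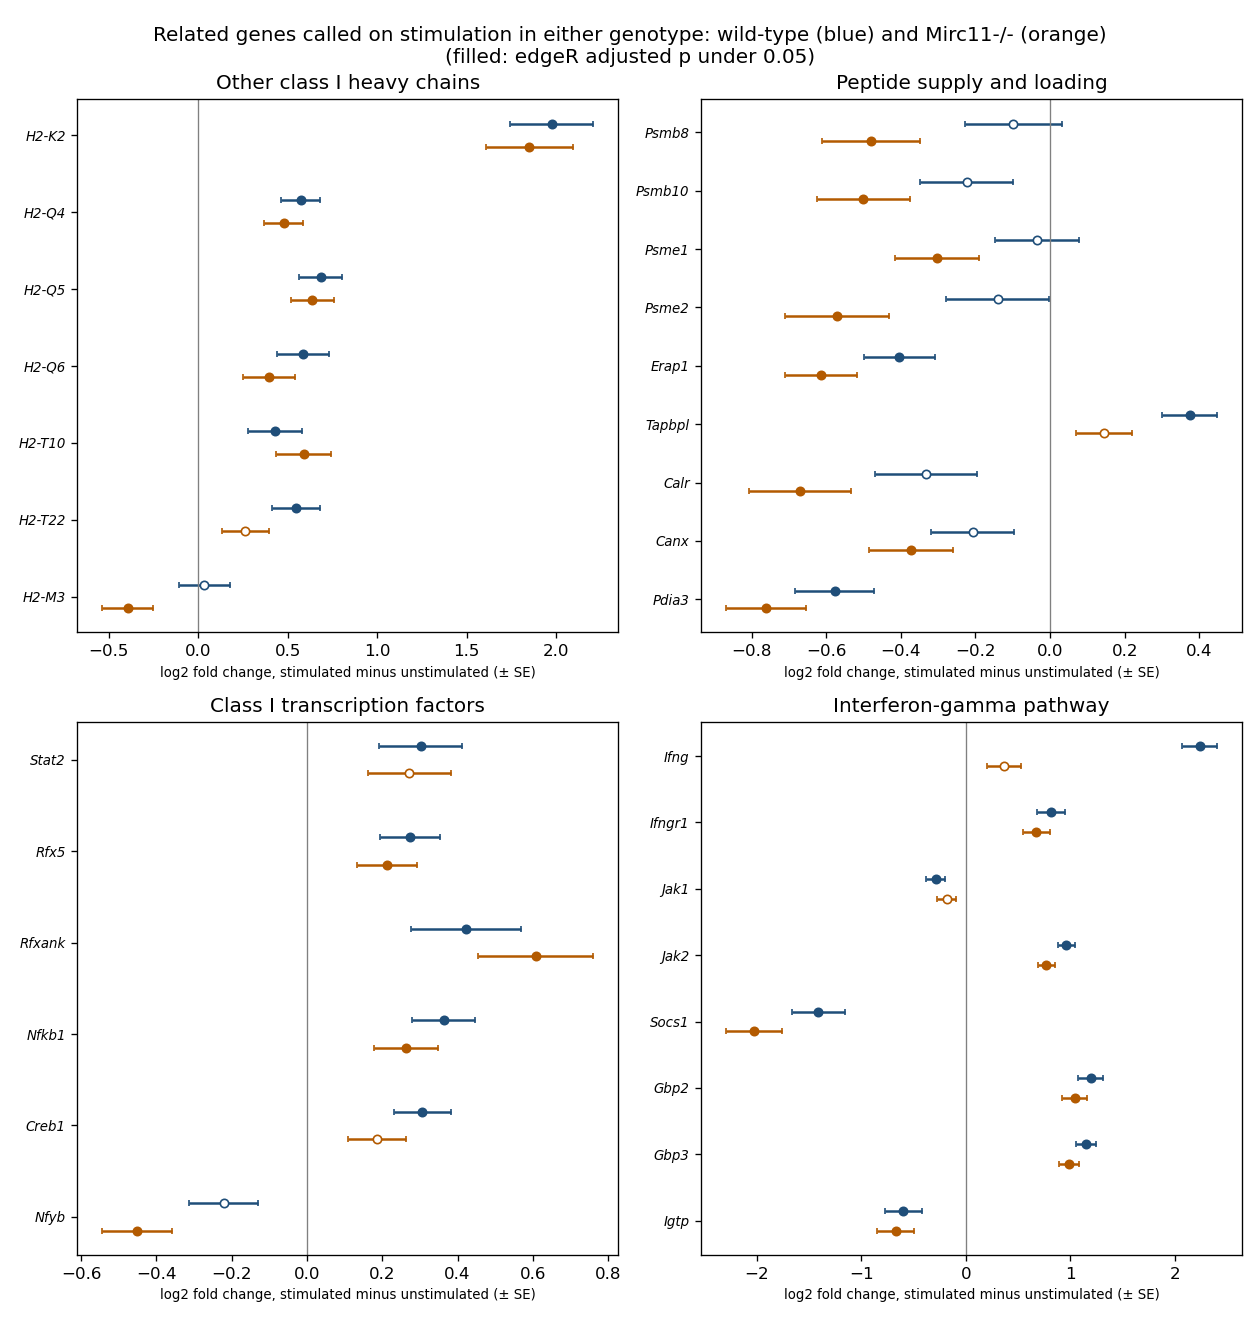
Log2 differences on stimulation (± SE) of the genes of 4 pathway lists that were called in at least 1 genotype, in wild-type (blue) and Mirc11-/- (orange) cells, filled where the adjusted p was under 0.05. Peptide supply and loading genes lie mostly under 0, and the other class I heavy chains mostly above it. Of the 10 supply and loading genes, 8 were called lower in Mirc11-/- cells. With the vomeronasal covariate, which is not plotted, 0 of them were, beside 263 of all 17457 genes. That covariate did not overlap between untreated and stimulated libraries of a genotype.

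Among 16 transcription factors known to act on class I genes, 5 were called higher and 0 lower in wild-type cells (median 0.19), beside 16.1% and 15.7% of all genes. Among them 3 were higher and 1 lower in Mirc11-/- cells (median 0.04), beside 23.5% and 22.1%. The NF-kB subunit gene Nfkb1 rose in each genotype (0.36 and 0.26), with 269.8 ± 13.4 CPM in untreated and 347 ± 22.4 CPM in stimulated wild-type cells. Rfx5 and Rfxank, subunits of the complex that binds the X box, rose by 0.27 and 0.42 in wild-type and by 0.21 and 0.61 in Mirc11-/- cells. Creb1 (0.31) and Stat2 (0.30) were the others called in wild-type cells, and Nfyb, a subunit of the factor that binds the Y box, was the 1 called lower in Mirc11-/- cells (-0.45). With 1 library left out, the number higher in wild-type cells was 2 without untreated replicate 2 (2494 of 18348 genes) or stimulated replicate 1 (2010 of 18253). It was 3 or 4 otherwise (2049 to 2492 genes). For Mirc11-/- cells it was 1 without untreated replicate 2 (3720 of 18341 genes) or 3 (3488 of 18328) or stimulated replicate 3 (3884 of 17996). Nfkb1 and Creb1 stayed called in 6 of 6 such fits in wild-type cells, and Rfxank and Nfyb in 6 of 6 in Mirc11-/- cells. With the vomeronasal covariate 2 were called in wild-type cells and 0 in Mirc11-/- cells. Over all 17457 genes it gave 2001 higher and 1864 lower in wild-type cells, and 297 and 263 in Mirc11-/- cells. Irf1, an interferon-induced factor that acts on class I promoters, was called in neither genotype, with a difference of 0.20 ± 0.0936 in wild-type cells (edgeR adjusted p = 0.117).

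Interferon-gamma raises class I expression in many cell types. In wild-type cells 5 of 12 genes tested from its pathway were called higher and 3 lower (median 0.15), beside 16.1% and 15.7% of all genes. Mirc11-/- cells gave 4 higher and 2 lower (median 0.12), beside 23.5% and 22.1%. The cytokine gene Ifng itself had 38.2 ± 2.39 CPM untreated and 180.2 ± 39.3 CPM stimulated in the wild type. Mirc11-/- cells had 46.0 ± 1.54 and 59.3 ± 13.5 CPM. It was the 1 gene of these lists whose responses were called different, by -1.87 (edgeR adjusted p = 0.0223), beside 2 of all 17457 genes. That call held in 4 of 12 fits with a library left out (edgeR adjusted p of up to 0.147). The receptor gene Ifngr1 (0.82 and 0.67), the kinase gene Jak2 (0.96 and 0.77) and the guanylate-binding protein genes Gbp2 (1.20 and 1.04) and Gbp3 (1.15 and 0.99) rose in wild-type and Mirc11-/- cells respectively. Socs1, an inhibitor of the pathway, fell by 1.41 and by 2.03. Igtp, also of this list, was lower in both genotypes, at -0.60 (edgeR adjusted p = 0.0184) and -0.67 (edgeR adjusted p = 0.00690). With 1 library left out it stayed called in 3 of 6 fits in wild-type and 6 of 6 in Mirc11-/- cells. The genes called higher in wild-type cells stayed called without any 1 library and with the vomeronasal covariate, and of the 4 in Mirc11-/- cells Gbp2 and Gbp3 did so. Without wild-type untreated replicate 1, 1 in place of 3 was called lower in wild-type cells, beside 2079 of 18332 genes. Socs1 and Igtp were not called with the covariate in either genotype.

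Of 6 class I-like genes tested, 1 was called higher and 0 lower in wild-type cells (median 0.30), beside 16.1% and 15.7% of all genes. Of the same 6, 2 were higher and 1 lower in Mirc11-/- cells (median 0.59), beside 23.5% and 22.1%. Cd1d1, which presents lipids to NKT cells, rose by 0.74 in each genotype, with 4.38 ± 0.432 CPM in untreated and 7.32 ± 0.277 CPM in stimulated wild-type cells. Ulbp1, whose product is a ligand of NKG2D, fell in Mirc11-/- cells, where untreated libraries had 105 to 115 CPM and stimulated ones 83.8 to 95.8 CPM (-0.28, edgeR adjusted p = 0.0126). Its wild-type libraries ranged from 109 to 125 CPM untreated and from 110.1 to 117 CPM stimulated. In stimulated cells it was lower in Mirc11-/- than in wild-type cells (-0.33, edgeR adjusted p = 0.0283), but not without wild-type replicate 2 or 3 or Mirc11-/- replicate 1, with an adjusted p of up to 0.0940. H60b, another NKG2D ligand gene, differed by genotype in each treatment. It had 4.79, 5.05 and 4.49 CPM in untreated wild-type libraries and 0.166, 0.189 and 0.234 CPM in untreated Mirc11-/- ones. The difference was -4.56 ± 0.270 untreated (edgeR adjusted p = 2.24e-06) and -4.21 ± 0.255 stimulated (edgeR adjusted p = 3.03e-06), and no library of one genotype overlapped with those of the other. The labels give C57BL/6 for all 12 samples and nothing more on how the Mirc11-/- line was bred, so an effect of the deletion and a difference between the lines at this gene cannot be told apart.

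The deleted microRNAs are shown with their seeds (bases 2 to 8) in capitals, from RefSeq (GRCm38.p6), because a seed match in a 3′ untranslated region would make a member a candidate target.
mmu-miR-23a-3p: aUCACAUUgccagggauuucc
mmu-miR-27a-3p: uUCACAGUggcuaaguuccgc
mmu-miR-24-3p: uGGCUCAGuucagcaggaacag
The 3 seeds differ from one another. Mir27a had 2, 3 and 3 counts in untreated and 1, 0 and 4 in stimulated wild-type libraries and 0 in all 6 Mirc11-/- libraries, Mir24-2 had 1 count in 1 wild-type library, and Mir23a had 0 in all 12. Such counts come from primary or precursor RNA and are too few to measure a change. The 7-base match AATGTGA to the miR-23a seed was in the 3′ untranslated regions of H2-K1 and H2-Q7 (17.9% of 12872 genes held it), the miR-24 match CTGAGCC in that of Tap2 (20.2%), and the miR-27a match ACTGTGA in none of the 9 (19.1%). H2-K1, H2-Q7 and Tap2 were not called between genotypes in either treatment.

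Markers of NK cells summed to 9816 to 11983 CPM in untreated and 6704 to 8016 CPM in stimulated wild-type libraries, and to 10770 to 11705 and 3584 to 5743 CPM in Mirc11-/- libraries, with Prf1 and Gzmb the main part. Of the marker lists for other cells, B cell markers summed to 57.1 to 71.9 CPM in untreated and 105 to 128 CPM in stimulated wild-type libraries, mostly from Ighm, with Cd79a and Cd79b under 1 CPM in all 12. In Mirc11-/- libraries they summed to 64.2 to 73.2 and 102 to 113 CPM. The B cell marker Ms4a1 ranged from 1.49 to 5.85 CPM over the 12 libraries. Macrophage and monocyte markers summed to 8.90 to 11.3 CPM in untreated wild-type libraries and at most 19.2 CPM in stimulated ones, and to 5.17 to 9.38 and 11.1 to 15.2 CPM in Mirc11-/- ones. The sums of both lists were higher after stimulation in each genotype, without overlap. T cell and dendritic cell markers were higher in Mirc11-/- libraries in each treatment, without overlap. T cell markers summed to 38.6 to 66.6 and 46.2 to 72.7 CPM in untreated and stimulated wild-type libraries against 67.6 to 114 and 75.7 to 97.6 CPM. Dendritic cell markers summed to 76.7 to 129.8 and 87.6 to 131 CPM against 190.2 to 207 and 160.1 to 195 CPM, mostly from Itgax, which NK cells also express, with H2-Aa, Flt3 and Clec9a under 1 CPM. Of the same list, Zbtb46 ranged from 6.76 to 24.2 CPM over the 12 libraries, Xcr1 from 2.69 to 8.64 CPM and Siglech from 0.559 to 2.03 CPM. No gene of these marker lists was at 0 in all 12. The part of such cells in the results was not tested, also for the genotype differences of H60b, H2-T22, Calr, Ifng and Ulbp1. Class II genes, which professional antigen-presenting cells express, gave 2 of 8 called higher in wild-type cells (16.1% of all genes) and 3 of 8 in Mirc11-/- cells (23.5%). Without untreated replicate 2 these numbers were 1 and 1 (2494 of 18348 and 3720 of 18341 genes), and with the vomeronasal covariate 0 and 0. Over all 17457 genes that covariate gave 2001 higher in wild-type and 297 in Mirc11-/- cells. Class II genes were low, with Cd74 at 0.574 ± 0.115 CPM in untreated and 1.69 ± 0.208 CPM in stimulated wild-type cells. In bulk RNA, fewer cells of a type and less RNA per cell cannot be told apart.

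Transcripts of 548 vomeronasal receptor genes, which NK cells are not known to use, moved with stimulation. They summed to 13.6 to 17.4 CPM in untreated and 24.8 to 41.5 CPM in stimulated wild-type libraries, and to 14.6 to 17.0 and 49.1 to 85.4 CPM in Mirc11-/- libraries. Untreated and stimulated libraries of a genotype did not overlap in that sum, nor did the genotypes after stimulation. A fit with it as a covariate therefore cannot fully separate it from stimulation or, in stimulated cells, from genotype. Its SE for Calr in Mirc11-/- cells was 0.287, beside 0.136 without it. Calls lost or gained with the covariate are given as values only. With that sum as a covariate, the calls of H2-Q7 in both genotypes (0.33 in wild-type and 0.03 in Mirc11-/- cells, edgeR adjusted p = 0.486 and 0.984) and of B2m (0.70, edgeR adjusted p = 0.0938) were lost. H2-T23 (0.75), Tap2 (0.42) and Tapbp (0.40) were then called higher in wild-type cells. Nlrc5 was still called lower in wild-type cells, but in Mirc11-/- cells its difference of -1.91 did not pass (edgeR adjusted p = 0.0786). Over all 17457 genes the covariate gave 2001 higher and 1864 lower in wild-type cells, beside 2814 and 2745 without it. In Mirc11-/- cells it gave 297 and 263, beside 4106 and 3852. For Mirc11-/- minus wild-type in stimulated cells, it gave -0.06 for H2-T22, -0.10 for Calr, -0.22 for Ulbp1 and -0.89 for Ifng. None of these was called (edgeR adjusted p of 0.0542 to 0.990). H60b stayed called, at -4.59 (edgeR adjusted p = 0.000132). Over all genes 10 were then higher and 20 lower.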

How the data were processed

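RNA-seq of polyadenylated RNA was available for 12 libraries. The submitters' processing notes name RSEM 1.3.0, the aligner Bowtie2 2.2.8, the trimmer Trim Galore 0.4.1 and bcl2fastq, and the genome GRCm38. No annotation release or strand setting was given in these sources, and overlapping or antisense transcripts cannot be told apart from the genes they overlap. The deposited values were RSEM expected counts, whole numbers per gene and not scaled between libraries, totalling 15139281 to 25342991 per library.

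Genes were filtered with filterByExpr, scaled with TMM factors and fitted with edgeR 4.0.16 (robust quasi-likelihood test, R 4.3.3) over all 12 libraries with 1 mean per group. P-values are two-sided and adjusted by Benjamini-Hochberg over all 17457 genes tested, and called means an adjusted p under 0.05. On simulated data for the wild-type comparison over 17457 genes, the fit recovered 84% of 100 genes changed by 1 and 38% of 100 changed by 0.5 on the log2 scale. It also called 12 of the 17257 genes left unchanged. In the data 5559 genes were called in that comparison, so these shares describe the simulated setting only. Positions and transcript lengths (median over coding transcripts) came from GENCODE vM21, and sequences from RefSeq. Alternatives included DESeq2 1.42.0 and limma 3.58.1. For the pathway lists, leaving out each library and the vomeronasal covariate were added after seeing the data.

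All 9 members were named, and of the pathway lists at most 6 genes past the threshold per comparison, by smallest p; where none passed, at most 2. Irf1, Canx and Psme1 fall outside that rule and were named after their values were seen. The members and lists were chosen with earlier results of these data known.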

Additional observations from a re-analysis of the deposited data

How the results depend on the processing

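Nlrc5 was called lower in 16 of 16 alternatives in wild-type cells (-1.80 to -1.44) and in 15 of 16 in Mirc11-/- cells (-1.91 to -1.32), the exception being the vomeronasal covariate, which left 0 of the 9 genes called lower there. Over all 17457 genes that covariate gave 297 higher and 263 lower in Mirc11-/- cells. The number called higher in wild-type cells, 5, ranged from 0 to 6 when 1 library was left out, and from 5 to 6 under the other settings. Over all genes, 2010 to 2494 were called higher with 1 library left out, beside 2814 with all. In Mirc11-/- cells the number called higher, 1, was 2 with no composition factor, with a stricter filter (50 counts in 3 libraries) and with a replicate block within genotype, 0 with the vomeronasal covariate, and 0 to 1 with 1 library left out. In stimulated cells the number lower in Mirc11-/-, 0, was 1 with no composition factor, 3 with no filter, 3 with DESeq2, and 0 to 1 with 1 library left out. Over all genes the numbers lower were 658 of 17457 with no composition factor, 1389 of 42168 with no filter and 1380 of 17457 with DESeq2. Fits with the heavy chains summed give no count of the 9. The causes were not tested.

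Correlations between libraries did not settle whether the replicate numbers pair them. Same-numbered libraries of 1 genotype had correlations of -0.065 to 0.226, and 3 of the 6 were over 0.1. For replicates 1, 2 and 3 they were 0.093, 0.226 and 0.135 in wild-type and 0.072, -0.065 and 0.141 in Mirc11-/- cells. Libraries with different numbers ranged from -0.167 to 0.027 in wild-type and from -0.195 to 0.123 in Mirc11-/- cells. With the block, H2-T23 was called in wild-type cells (0.35, edgeR adjusted p = 0.0360) and Tap1 in Mirc11-/- cells (0.27, edgeR adjusted p = 0.0355). It gave 4155 genes higher and 4165 lower in Mirc11-/- cells, beside 4106 and 3852.

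For the 9 genes, every value that changed sign was uncalled in both fits, which does not hold for the pathway lists. For stimulation in Mirc11-/- cells, leaving out 1 library gave -0.040 to 0.14 for H2-K1, -0.013 to 0.19 for H2-D1, -0.0031 to 0.19 for H2-T23 and -0.089 to 0.039 for Tapbp. With no filter H2-K1 was -0.040, H2-D1 -0.017 and H2-T23 -0.0074, and with the stricter filter Tapbp was 0.053. For the difference of the responses, leaving out 1 library gave -0.20 to 0.091 for H2-Q7 and -0.049 to 0.26 for Nlrc5, and H2-Q7 was 0.015 with no composition factor and 0.0031 with the stricter filter. For Mirc11-/- minus wild-type in untreated cells, leaving out 1 library gave -0.21 to 0.022 for H2-K1, -0.15 to 0.13 for H2-D1, -0.23 to 0.0056 for H2-T23, -0.19 to 0.080 for H2-Q7, -0.13 to 0.15 for B2m, -0.15 to 0.090 for Tap1 and -0.061 to 0.062 for Tap2, which was 0.0021 with the stricter filter. In stimulated cells it gave -0.23 to 0.0073 for H2-Q7. With the vomeronasal covariate, Tap2 and Tapbp were 0.39 and 0.46 for stimulation in Mirc11-/- cells. For the difference of the responses H2-D1, H2-T23, Tapbp and Nlrc5 were then 0.014, 0.13, 0.057 and -0.11. For the genotypes, H2-D1 and Tap2 were 0.014 and 0.015 untreated, and H2-D1, H2-T23 and Tapbp 0.028, 0.045 and 0.19 stimulated.

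Over all genes, the genotype difference in stimulated cells, 679 higher and 896 lower, was 58 and 157 with only those groups fitted and 10 and 20 with the covariate. Stimulation in Mirc11-/- cells then gave 297 and 263. With no filter it gave 6818 and 4295. The difference of the responses, 0 higher and 2 lower, was 15 and 48 with DESeq2, 15 and 32 with no filter, and 3 and 10 with the replicate block. In untreated cells the genotype difference, 54 and 139, was 105 and 277 with DESeq2 and 93 and 235 with only those groups fitted. The lowest count of any of the 9 genes in a library was 431.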
